A study of Mus musculus with 6 samples.

Results

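Genes of the ventral telencephalon and of the GABAergic interneurons born there were examined in mouse embryonic cortex. It came from embryos labelled as double knock-outs of the Hippo kinase genes Lats1 and Lats2 and from control embryos. The set named 8 genes: Gsx2, Dlx1, Dlx2, Dlx5, Sp9, Lhx6, Gad1 and Gad2. A gene was measured where a row of the deposited table carried its symbol and no other, and 7 of the 8 had such a row, among 22180 genes with one in all. The exception was Dlx1, whose row was shared with the antisense transcript Dlx1as and gave no value for either. The other 7 genes had 1 row each, and all 7 passed the filter on dim genes.

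Dissected cortices of 6 embryos at E12.5 were compared, each sample from its own embryo according to the labels. The 3 control embryos carried the label control, with no further statement of their alleles or of a Cre transgene in the labels. The 3 DKO (double knock-out) embryos were Lats1F/F;Lats2F/F;Nestin-Cre, meaning that both kinase genes were flanked by loxP sites and that Cre was expressed from the Nestin promoter, which is active in neural progenitors. All embryos were untreated, and no litter or sex is used here.

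The ventral telencephalon, or subpallium, consists in the embryo of the ganglionic eminences, which lie beside the cortex and produce the GABAergic neurons of the forebrain. Gsx2 patterns their progenitors and acts upstream of the Dlx homeobox genes, which drive progenitors towards the GABAergic fate. Interneurons then migrate tangentially from the eminences into the cortex, so a cortical dissection can hold these transcripts both in migrating cells and in any eminence tissue taken along. Gad1 and Gad2 encode the enzymes that make GABA.

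In the data, all 7 measured genes had lower means in DKO than in control cortex, as did 60.2% of all genes tested. None of the 7 passed the test over all genes. The differences ran from -0.66 on the log2 scale for Dlx2, a 1.58-fold lower signal, to -0.0074 for Gsx2. The embryos of each genotype differed widely from each other in most of these genes, and control 3 and DKO 2 lay close together in several of them. Every level below is the log2 signal of 1 row on 1 array, every difference is DKO minus control on that scale, and levels of different genes are not set against each other.

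The upstream sequences of 4 of these genes are shown because Dlx2 and Gsx2 had the largest and the smallest difference of the set and Gad1 and Gad2 encode partner enzymes that can be read side by side. Each holds the 250 bases before the annotated start in RefSeq, build GRCm38.p6, written 5′ to 3′ on the strand of the gene. Capitals mark the core letters bound by TEAD factors, the DNA-binding partners of YAP and TAZ, searched as GGAATG and its reverse complement CATTCC.
Dlx2, chr2:71546755-71547004, minus strand: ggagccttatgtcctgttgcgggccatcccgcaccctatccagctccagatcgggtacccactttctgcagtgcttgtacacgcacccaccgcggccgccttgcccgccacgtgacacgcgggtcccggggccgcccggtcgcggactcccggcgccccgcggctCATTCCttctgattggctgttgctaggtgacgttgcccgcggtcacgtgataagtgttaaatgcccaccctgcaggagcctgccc
Gsx2, chr5:75075351-75075600, plus strand: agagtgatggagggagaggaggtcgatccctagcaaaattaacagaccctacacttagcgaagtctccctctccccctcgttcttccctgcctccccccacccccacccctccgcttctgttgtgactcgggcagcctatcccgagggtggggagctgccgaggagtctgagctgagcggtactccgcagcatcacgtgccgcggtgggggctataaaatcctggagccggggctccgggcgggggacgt
Gad1, chr2:70561879-70562128, plus strand: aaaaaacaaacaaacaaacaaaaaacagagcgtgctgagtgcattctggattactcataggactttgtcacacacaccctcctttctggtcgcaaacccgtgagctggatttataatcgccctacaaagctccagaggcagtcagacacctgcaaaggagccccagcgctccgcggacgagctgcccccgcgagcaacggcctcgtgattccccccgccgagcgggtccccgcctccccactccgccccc
Gad2, chr2:22622077-22622326, plus strand: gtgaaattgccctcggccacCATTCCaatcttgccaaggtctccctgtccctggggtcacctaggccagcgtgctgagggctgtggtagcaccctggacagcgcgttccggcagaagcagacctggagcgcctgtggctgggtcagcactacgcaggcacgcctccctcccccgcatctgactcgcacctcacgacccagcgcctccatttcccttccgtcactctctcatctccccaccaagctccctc

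The core was present in the windows of Dlx2 and Gad2, starting 85 and 230 bases before the annotated start. Of the 8 named genes 7 had an entry, with 9 windows because Lhx6 has several starts. These are not the 7 measured genes: Dlx5 had no entry and was not searched, and Dlx1 is counted. The core was in 2 of the 9 windows, and so in 2 of the 7 genes with an entry. Among all 32851 windows of the same length 12.6% held it. The paired homeodomain core TAATTA, which is its own reverse complement, was in 0 of the 9 windows of these genes and in 4.84% of all windows. A match is a description of the letters and not evidence of binding.

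Before the members, the targeted genes were read in each group. Lats1 was lower in DKO, by a log2 difference of -0.91 ± 0.14 (SE, n = 3 per group; limma adjusted p 0.0189), and Lats2 differed by 0.24 ± 0.10 (SE; limma adjusted p 0.285). Leaving out control 1, control 3, DKO 1 or DKO 3 ended the call for Lats1, with limma adjusted p between 0.0571 and 0.0875. The Lats1 difference lay between -1.10 and -0.78 over all fits without 1 array, which have fewer samples. No source used here gives the positions of the Lats2 probes relative to the deleted exons, so this row does not check the deletion. Array medians lay between 5.94 and 5.97, and correlations between arrays between 0.978 and 0.994. Of the dorsal pallial genes, which the cortex expresses, 21 of 21 with a row passed the filter on dim genes. So did 12 of 12 eminence progenitor and pan-subpallial genes and 16724 of all 22180 genes, so passing does not check the dissection. Of 16724 genes tested with limma, 1.36% were called higher and 0.359% lower in DKO at an adjusted p under 0.05, together 1.72%, and 60.2% had a lower mean in DKO. The median difference over all genes tested was -0.03.

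Of the 7 measured ventral genes, 0 were called in either direction by limma over all genes, against 1.72% of all genes tested. At an unadjusted p under 0.05 there were 3, Dlx2, Dlx5 and Gad1, all with lower means in DKO, where 9.18% of all genes tested were lower at that limit. For 2 genes, Dlx2 and Gad1, every DKO array lay below every control array, as it did for 13.4% of all genes tested. The median difference of the 7 genes was -0.21. As cortex was profiled in bulk, fewer cells of a type and less RNA per cell cannot be told apart in any of these values.

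**Figure D1:**
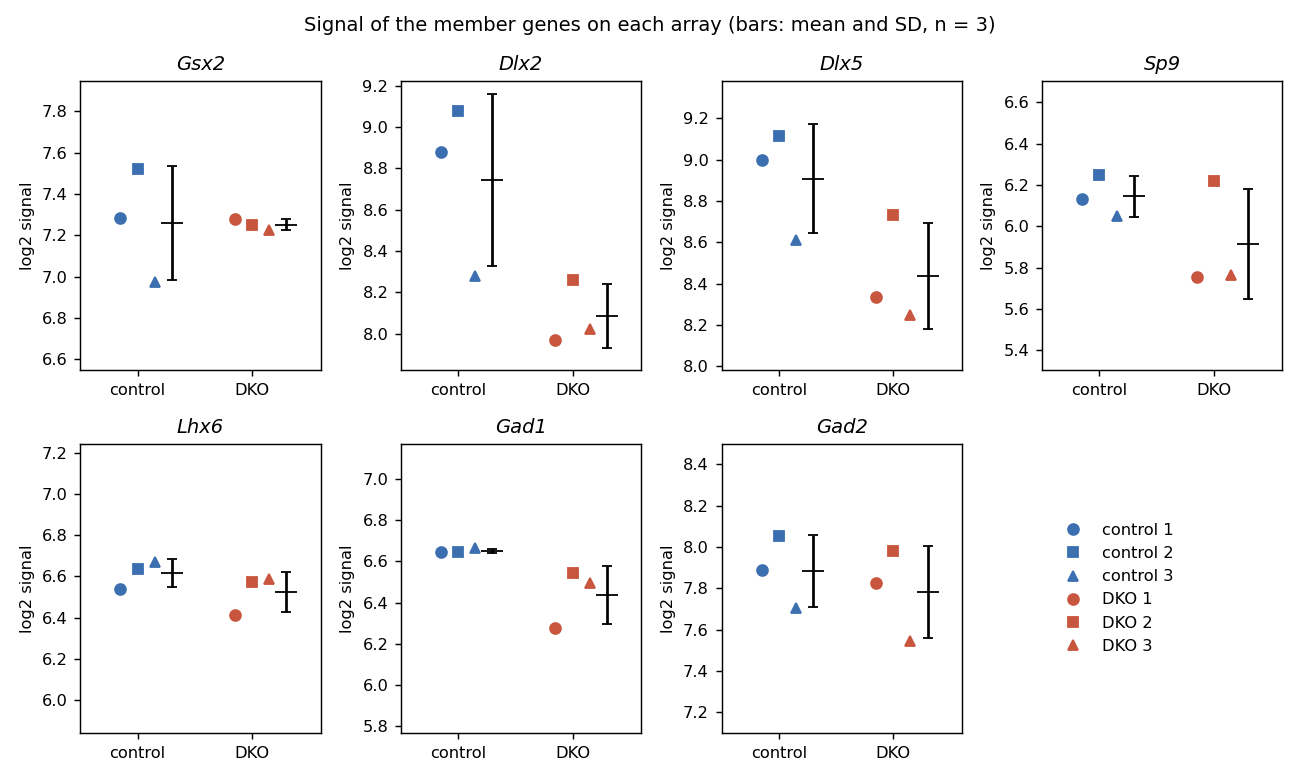
Log2 signal (vertical axes, each spanning the same number of log2 units) of the 7 measured genes on each of the 3 control (blue) and 3 DKO (red) arrays, with the replicate number as the symbol and the mean and SD of each group as bars. DKO arrays lie below all control arrays for Dlx2 and Gad1, and the groups overlap for the other 5 genes.

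Gsx2, the homeobox factor of lateral eminence progenitors, did not differ measurably. It stood at 7.28, 7.52 and 6.97 in controls 1 to 3 and at 7.28, 7.25 and 7.23 in DKO 1 to 3. All 3 DKO arrays lay inside the range of the controls and within 0.05 of each other, while the controls spanned 0.55. The difference was -0.0074 ± 0.12 (SE), with a 95% confidence interval from -0.29 to 0.27 and a limma adjusted p of 0.984. The interval leaves room for a change of that size in either direction, and the sign turned when each array was centred on its median, to 0.0115.

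Dlx2, a homeobox factor of eminence progenitors and young GABAergic neurons, had the largest difference of the 7. Its signal was 8.88, 9.08 and 8.28 in controls 1 to 3 and 7.97, 8.26 and 8.02 in DKO 1 to 3. Controls 1 and 2 stood well above all DKO arrays, but control 3 (8.28) was nearly level with DKO 2 (8.26). The means were 8.74 ± 0.42 (SD, n = 3) and 8.08 ± 0.16 (SD, n = 3), a difference of -0.66 ± 0.19 (SE) with a 95% confidence interval from -1.08 to -0.24. The limma adjusted p was 0.137, and the exact two-sided permutation p was 0.1, the smallest that 3 arrays against 3 allow. A single array decided this call: without control 3 the difference was -0.89 with a limma adjusted p of 0.0150, and in the other alternatives the adjusted p lay between 0.0675 and 0.345. In the genome table Dlx2 neighbours Dlx1, which could not be read here.

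Dlx5, a homeobox factor that acts after Dlx1 and Dlx2 as GABAergic cells leave the progenitor zones, was likewise highest in control 2 and lowest among the controls in control 3. Its signal was 9.0, 9.11 and 8.61 in controls 1 to 3 and 8.33, 8.73 and 8.25 in DKO 1 to 3. The groups overlapped only through DKO 2, which stood above control 3. The difference was -0.47 ± 0.16 (SE), with a 95% confidence interval from -0.83 to -0.11, a limma adjusted p of 0.204 and an exact permutation p of 0.2. It was not called under any alternative, with adjusted p from 0.0748 to 0.439.

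Beside Dlx5 in the genome lies Dlx6, a homeobox gene of the same family, and the noncoding transcript Dlx6os1 is made from the same locus. Both are named after their values were seen. Dlx6 differed by -0.22 ± 0.13 (SE, limma adjusted p 0.495) and Dlx6os1 by -0.32 ± 0.16 (SE, limma adjusted p 0.389). Dlx6 and Dlx6os1 were highest in control 2 and lowest in DKO 3. Dlx6 and Dlx6os1 can overlap in the genome, and no source used here says whether the probes keep the strands apart.

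Sp9, a zinc finger factor of the ganglionic eminences and their young neurons, varied mostly within DKO. Its signal was 6.13, 6.25 and 6.05 in controls 1 to 3 and 5.76, 6.22 and 5.77 in DKO 1 to 3. DKO 1 and 3 lay below all controls and DKO 2 stood among them. The difference was -0.23 ± 0.13 (SE), with a 95% confidence interval from -0.52 to 0.06 and a limma adjusted p of 0.431. Without DKO 2 it was -0.38, and it was not called there.

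Lhx6, the LIM homeobox factor of interneurons from the medial eminence, differed least among embryos. Its signal was 6.54, 6.64 and 6.67 in controls 1 to 3 and 6.42, 6.57 and 6.59 in DKO 1 to 3. The groups overlapped, with only DKO 1 below all controls. The difference was -0.09 ± 0.07 (SE), with a 95% confidence interval from -0.26 to 0.08, a limma adjusted p of 0.614 and an exact permutation p of 0.3.

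Gad1 encodes GAD67, the enzyme that supplies most of the GABA in the brain. Its signal was 6.64, 6.64 and 6.66 in controls 1 to 3 and 6.27, 6.54 and 6.49 in DKO 1 to 3. The controls were nearly identical and every DKO array was lower, DKO 1 the most. The difference was -0.21 ± 0.08 (SE), with a 95% confidence interval from -0.40 to -0.03, a limma adjusted p of 0.246 and an exact permutation p of 0.1. The adjusted p ranged from 0.175 to 0.467 over the alternatives, and the value was -0.13 without DKO 1.

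Gad2 encodes GAD65, the isoform enriched at synaptic terminals. Its signal was 7.89, 8.06 and 7.71 in controls 1 to 3 and 7.82, 7.98 and 7.54 in DKO 1 to 3. DKO 1 and 2 lay inside the range of the controls, and DKO 3 lay below it. The difference was -0.10 ± 0.13 (SE), with a 95% confidence interval from -0.39 to 0.19, a limma adjusted p of 0.754 and an exact permutation p of 0.6. Its sign turned without DKO 3, at 0.02.

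**Figure D2:**
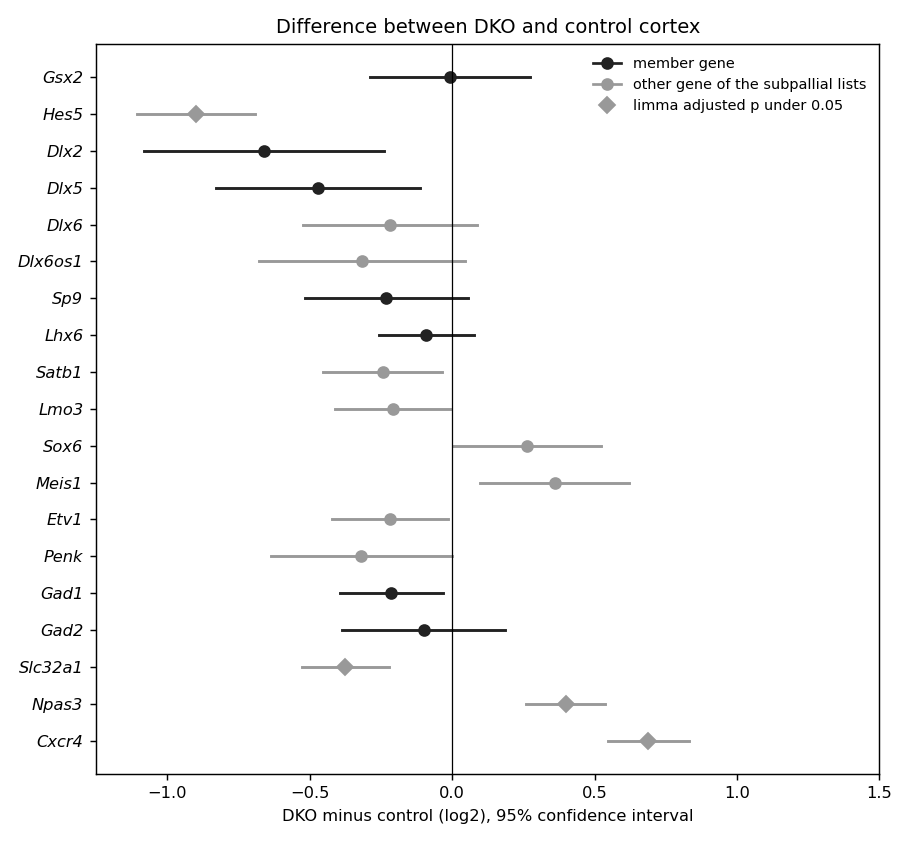
DKO minus control on the log2 scale (horizontal axis) with 95% confidence intervals for the 7 measured genes (black) and for other genes of the subpallial lists (grey), diamonds marking a limma adjusted p under 0.05. The intervals of Dlx2, Dlx5 and Gad1 lie below 0 without passing the adjusted test, and those of Gsx2, Sp9, Lhx6 and Gad2 include 0.

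No array was the highest or the lowest for all 7 genes. Control 2 was the highest of the 6 arrays for 5 of the 7 genes, and control 3 for the other 2, Lhx6 and Gad1. DKO 1 was the lowest for 4 genes, DKO 3 for 2 and control 3 for 1. Within its own group control 3 was the lowest for 5 genes and DKO 2 the highest for 5. Averaged over the 7 genes, the arrays stood at 0.02, 0.16 and -0.18 from the control mean in controls 1 to 3 and at -0.34, -0.09 and -0.33 in DKO 1 to 3. On this average DKO 2 lay above control 3, so the groups overlapped.

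The spread between embryos of one group was large for 5 of the 7 genes. The residual SD, which pools both groups after their means are removed, was 0.31 for Dlx2, larger than in 98.9% of all genes tested. It was 0.26 for Dlx5 (97.8%), 0.20 for Sp9 (93.2%), 0.20 for Gad2 (93.1%) and 0.19 for Gsx2 (92.5%). Gad1 at 0.10 and Lhx6 at 0.08 were close to the median of all genes tested, 0.0951. This is a description of 3 embryos per group, and the part that the dissection had in it was not tested.

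**Figure D3:**
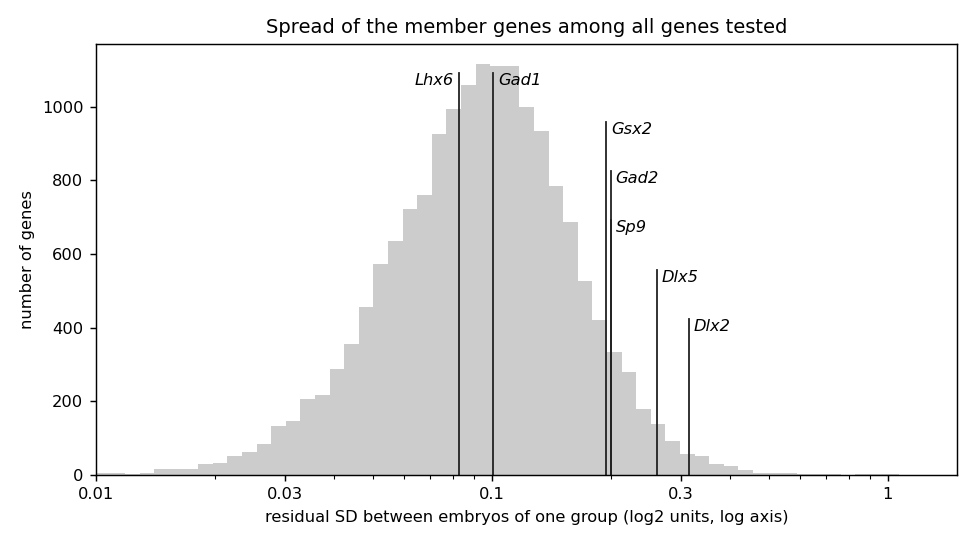
Residual SD between embryos of one group in log2 units (horizontal axis, logarithmic) for all 16724 genes tested (grey, number of genes on the vertical axis), with vertical lines for the 7 measured genes. Dlx2 and Dlx5 lie at the far right at 0.31 and 0.26, and Lhx6 and Gad1 lie near the centre.

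Other genes expressed in the subpallium were read from 4 lists. The lists are not limited to genes found only there, so their values are not a reading of the subpallium alone. Of 12 tested genes of eminence progenitors and of the subpallium in general, 0 rose and 1 fell, and the median difference was -0.15. The one that fell was Hes5, a Notch effector that progenitors of the cortex also express, by 0.90 ± 0.09 (SE) on the log2 scale (limma adjusted p 0.00197). With the mean of all rows of the gene Hes5 fell by 0.59 on the log2 scale, and it was called in all 15 alternatives. Of 9 tested genes of the medial eminence, 0 passed, with a median of -0.14. The smallest p values there were those of Satb1, a chromatin organiser needed by interneurons, at -0.24 ± 0.09 (SE), Lmo3, a LIM-only protein, at -0.21 ± 0.09 (SE), and Sox6, which acts in interneurons after Lhx6, at 0.26 ± 0.11 (SE), with adjusted p of 0.25, 0.30 and 0.319. Nkx2-1, the factor that defines the medial eminence and was named after its value was seen, differed by -0.18 ± 0.10 (SE, adjusted p 0.429).

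Of 15 tested genes of the lateral eminence and striatum, 0 passed, with a median of -0.06. Those with the smallest p were Meis1, a homeobox factor, at 0.36 ± 0.11 (SE, limma adjusted p 0.186), Etv1, an ETS factor, at -0.22 ± 0.09 (SE, adjusted p 0.291), and Penk, the enkephalin precursor of striatal neurons, at -0.32 ± 0.14 (SE, adjusted p 0.321). Thus the genes with the smallest p in the medial and lateral lists had differences of both signs. In bulk cortex it cannot be told which cells gave the signal of Sox6 and Meis1, which were higher in DKO.

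Of 20 tested genes of migrating interneurons and GABA handling, 2 rose, 1 fell and 17 did not pass, with a median of -0.06. Slc32a1, which encodes the transporter that loads GABA into synaptic vesicles, was the one that fell. Its signal was 6.05, 6.14 and 6.19 in controls 1 to 3 and 5.72, 5.70 and 5.83 in DKO 1 to 3. The groups were well apart and no embryo stood out. The difference was -0.37 ± 0.07 (SE), a 1.30-fold lower signal, with a limma adjusted p of 0.0334. The call was lost in each of the 6 fits without 1 array, with adjusted p of 0.0811 without control 1, 0.0920 without control 2, 0.129 without control 3, 0.122 without DKO 1, 0.0772 without DKO 2 and 0.0630 without DKO 3, and differences from -0.41 to -0.34.

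Cxcr4, a chemokine receptor that guides migrating interneurons, rose. Its signal went from 8.67, 8.62 and 8.58 in controls 1 to 3 to 9.33, 9.26 and 9.36 in DKO 1 to 3, a difference of 0.69 ± 0.06 (SE; limma adjusted p 9.86e-04). Npas3, a bHLH-PAS factor, rose by 0.40 ± 0.06 (SE, adjusted p 0.0160). Both genes are also expressed by progenitors of the cortex, so neither marks interneurons alone. The call for Cxcr4 held in all 15 alternatives. Among the fits without 1 array, that for Npas3 was lost without control 1 (limma adjusted p 0.0902), control 2 (0.0556), control 3 (0.0653), DKO 1 (0.0677) and DKO 3 (0.0654). The Npas3 difference lay between 0.37 and 0.43 over all fits without 1 array, which have fewer samples. Over the 4 lists together, 56 genes were tested, of which 2 rose, 2 fell and 37 had lower means. Their median was -0.08, beside -0.03 over all genes tested, and they include genes that the cortex also expresses.

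Genes of neighbouring territories were read on the same arrays. The mean of each of the 21 tested dorsal pallial genes was lower in DKO, and their median difference was -0.29. The one that fell was Slc17a7, a vesicular glutamate transporter, by 0.42 ± 0.08 (SE) on the log2 scale (limma adjusted p 0.0456). That call was lost without control 1 (limma adjusted p 0.175), control 3 (0.161), DKO 1 (0.144), DKO 2 (0.0841) and DKO 3 (0.135). The Slc17a7 difference lay between -0.50 and -0.37 over all fits without 1 array, which have fewer samples. With all arrays kept the call was lost with no filter on dim genes (limma adjusted p 0.0624) and with each array centred on its median (0.0521). Averaged over this list the arrays stood at 0.01, -0.11 and 0.10 from the control mean in controls 1 to 3 and at -0.32, -0.27 and -0.26 in DKO 1 to 3. Control 2, the highest array for most of the ventral genes, was the lowest control for the dorsal list, and control 3 was the reverse. The part of tissue composition in these values was not tested.

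Genes of the hem and choroid plexus, the dorsal midline, stood higher in DKO, with a higher mean in 16 of 17 tested genes. Of the 17, 4 rose, Lmx1a, Foxj1, Ttr and Bmp6, 0 fell, and the median was 0.39. The list averaged -0.07, 0.16 and -0.09 from the control mean in controls 1 to 3 and 0.54, 0.60 and 0.30 in DKO 1 to 3. DKO 2, the DKO array with the highest ventral average, also had the highest midline average of the DKO arrays, but this did not hold gene by gene. Ttr was at 8.84 in DKO 1 and 10.25 in DKO 2, and Otx2 at 6.68 and 7.68. Lmx1a, Wnt5a, Wnt8b, Rspo2, Bmp4, Bmp6, Folr1 and Aqp1 were higher in DKO 1 than in DKO 2. Each of the 4 calls was lost in at least 3 of the 6 fits without 1 array: for Lmx1a without control 1, control 3 or DKO 1 (limma adjusted p up to 0.0583), for Foxj1 without any array but control 2 (up to 0.109), for Ttr without any control or DKO 1 (up to 0.141), and for Bmp6 without any array but DKO 2 (up to 0.147). Over these fits, which have fewer samples, the difference lay between 0.44 and 0.51 for Lmx1a and between 0.37 and 0.44 for Foxj1. It lay between 1.69 and 2.64 for Ttr and between 0.50 and 0.76 for Bmp6. With all arrays kept, the call for Ttr was lost with a robust variance prior (limma adjusted p 0.0943) and that for Bmp6 with no filter on dim genes (0.0507).

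Markers of other borders and cells gave no more than 1 call. Of 11 tested genes of the ventral pallium, antihem and septum 0 passed, with a median of 0.06, and of 13 genes of the diencephalon and eye 1 fell, the retinoid carrier gene Rlbp1, by 1.11 ± 0.19 (SE) on the log2 scale (limma adjusted p 0.030), with a list median of -0.04. Rlbp1 was not called without control 1, control 3, DKO 1 or DKO 3, with limma adjusted p between 0.0803 and 0.103. Its difference lay between -1.28 and -0.93 over all fits without 1 array, which have fewer samples. In bulk cortex it cannot be told which cells gave the Rlbp1 signal, so its fall is not a reading of eye or diencephalic tissue. On the ventral pallium, antihem and septum list DKO 2 stood at 0.26 from the control mean, while the other 5 arrays lay between -0.07 and 0.04. On the diencephalon and eye list DKO 1 to 3 stood at -0.17, 0.06 and -0.11 from the control mean. Of 18 genes of meninges, endothelium, blood and microglia 0 passed, with a median of -0.18. On that last list DKO 2 stood at -0.56 from the control mean, while the other 5 arrays lay between -0.06 and 0.11. DKO 2 was also the DKO array nearest to the controls in the average of the ventral genes, and the part of this difference in cell content in their values was not tested.

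**Figure D4:**
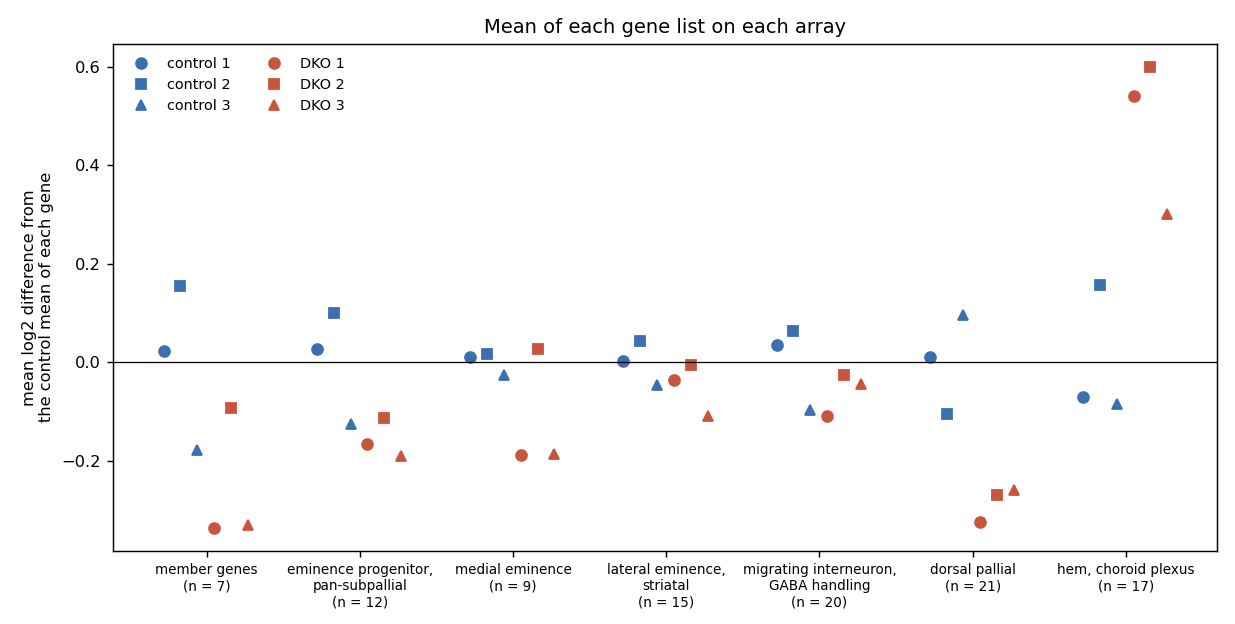
Mean difference of each array from the control mean of each gene in log2 units (vertical axis), averaged over the tested genes of 7 lists (number in brackets), for 3 control (blue) and 3 DKO (red) arrays with the replicate number as the symbol. For the 7 ventral genes DKO 2 (-0.09) lies above control 3 (-0.18), whereas all DKO arrays lie below the controls on the dorsal pallial list and above them on the hem and choroid plexus list.

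The genes most like the ventral set over the 6 arrays were found by Pearson correlation with the average profile of the 7 genes, among 10630 other genes that varied at least as much as the least variable of the 7. They were Fbp1 (r = 0.99), Sstr5 (0.99), Krtap5-5 (0.99), Coa4 (0.98) and Rgs17 (0.98), with differences between -0.20 and -0.11 and no call. Among the 7 genes, which form the profile themselves, Dlx5 (0.99), Dlx2 (0.96) and Sp9 (0.90) followed it most closely, Gsx2 (0.56) and Lhx6 (0.44) least. The 6 points are arrays normalized together and the genes were ranked in a long table, so nothing is read from the names.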

How the data were processed

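Total RNA of 6 embryonic cortices was hybridised to 1 whole-transcript array each. The authors deposited log2 values made by RMA, per the submitters' processing notes, a method that subtracts background, gives all arrays one distribution of values and combines the probes of each row. A change common to all transcripts would therefore not be seen. No source used here gives its version or the build of the probes, and no detection call was used.

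Gene symbols came from the platform's annotation. Of 41345 rows, 23521 had 1 symbol, 1814 several and 16010 none, and only the first were used. Where a gene had several rows (1082 genes), the one with the highest 6-array mean was kept. Genes whose mean lay below the 25th percentile of one-symbol rows (log2 5.02) were left out, 5456 of 22180, leaving 16724. DKO was compared with control with R 4.3.3 and limma 3.58.1 (functions lmFit and eBayes, two-sided, no covariate), with Benjamini-Hochberg adjustment over all genes tested and a threshold of 0.05. Exact permutation tests used all regroupings of 3 against 3 arrays. The number of arrays limits the precision.

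The members and gene lists were chosen with earlier results of these data known. Named in the text are all members, Lats1 and Lats2, in each list the called genes (at most 4) or otherwise the 3 with the smallest p, and the 5 genes with the most similar profile. In data simulated for this comparison over 16724 genes, the test recovered 62.4% of changes of 0.5 on the log2 scale, 94.4% of 1 and 99.2% of 1.5, with 3.52% false calls among all calls. The SD of each simulated gene was drawn at random from all genes tested. Dlx2, Dlx5, Sp9, Gad2 and Gsx2 each had a residual SD larger than in at least 92.5% of those genes. The recovery rates therefore do not apply to these members. Noise was drawn independently for each gene and array, so the share of false calls need not hold where genes vary together. Alternatives were no filter, a filter at the 50th percentile, median centring, repeated quantile normalization, trended and robust variance, the mean of all rows of a gene, array weights, the replicate number as a block, and leaving out each array.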

Additional observations from a re-analysis of the deposited data

How the results depend on the processing

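The median difference of the 7 ventral genes was negative in every alternative run, and from -0.27 to -0.13 when 1 array was left out. None of the 7 was called in any alternative that kept all 6 arrays, and the number called ranged from 0 to 1 when 1 array was left out, the 1 being Dlx2 without control 3. Gsx2 turned to 0.0115 with each array centred on its median, and lay between -0.15 and 0.12 when 1 array was left out, where it turned without control 1, control 2 and DKO 3. Gad2 lay between -0.20 and 0.02, and turned without DKO 3. Over all genes tested, 228 were higher and 60 lower. The number lower was 134 with a filter at the 50th percentile, where fewer genes were tested, 162 with a trended variance and 123 with array weights, and the cause was not tested for the last 2. When 1 array was left out, with fewer samples, 121 to 260 were higher and 11 to 54 lower. Both groups use the replicate numbers 1 to 3, and the labels do not say whether equal numbers pair the samples. The correlations of their deviations from the group means were -0.10, 0.21 and 0.15. Controls 2 and 3 correlated best with the DKO sample of their own number, whereas control 1 correlated best with DKO 3, at 0.24. These correlations cannot settle whether the samples are paired, as each mean rests on 3 arrays. With the replicate number as a block 176 genes were higher and 24 lower, and the adjusted p was 0.0684 for Slc32a1, 0.0637 for Npas3, 0.0982 for Slc17a7, 0.0980 for Bmp6, 0.0575 for Foxj1 and 0.0528 for Rlbp1, which ended these 6 calls; those for Cxcr4, Hes5, Lmx1a, Ttr and Lats1 held. The dim-gene filter at the 50th percentile left out Sp9, and also Slc32a1, Lmx1a and Bmp6, whose calls were therefore not tested there. Without a detection call, it is not known which signals lie near background.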

Other observations

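Transcripts of 2 interneuron peptides, named here after their values were seen, varied more between embryos than any of the 7 genes of the report: the residual SD was 0.66 for Sst and 0.43 for Npy, against 0.31 for Dlx2. Sst, the somatostatin precursor, stood at 9.53, 9.46 and 8.97 in controls 1 to 3 and at 7.98, 9.63 and 8.26 in DKO 1 to 3, so that DKO 2 was the highest of all 6 arrays and the other DKO arrays were the lowest. Its difference was -0.69 ± 0.38 (SE) with a limma adjusted p of 0.430. Npy, neuropeptide Y, had 7.82, 8.01 and 7.41 in controls 1 to 3 and 6.73, 7.79 and 7.28 in DKO 1 to 3, a difference of -0.48 ± 0.25 (SE, adjusted p 0.412). Dbx1, a homeobox gene of the ventral pallium and septum, was at 7.31 in DKO 2 and between 5.76 and 6.20 on the other 5 arrays. Tcf7l2, from the diencephalon and eye list and also named after its values were seen, was at 8.15 in DKO 2. On the other 5 arrays it lay between 6.89 and 7.08.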
